A study of Nematostella vectensis with 96 samples.

Results

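The 100 gene models described here had a higher mean level under red, green and blue light cycles than in constant darkness in adult *Nematostella vectensis*, a burrowing sea anemone without eyes. They were chosen by a rule from the 23927 gene models counted. The study kept adults of a laboratory-bred stock for a month in a light-controlled room under red light:dark, green light:dark or blue light:dark cycles, with 12 h of light a day, or in dark:dark conditions (DD), and preserved 4 whole animals of each condition every 4 h at 6 time points, from 2 to 22 h after lights on (Zeitgeber time, ZT2 to ZT22, with lights off at ZT12). Each of the 96 libraries came from 1 animal that had been starved before sampling, and all groups shared stock, diet and starvation. For DD alone, the study states that feeding and water changes were done with the lights off. Color cannot be told apart from whatever else differed between the cultures of the groups. A library from a whole animal mixes all cell types, so fewer cells of a type and less RNA per cell cannot be told apart.

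Sea anemones sense light without eyes, through photoreceptor proteins such as opsins and cryptochromes in cells of the body. In animals generally, light acts on gene expression both directly and through a circadian clock, a set of transcription factors that switch each other on and off once a day. PAR-bZIP proteins are leucine zipper transcription factors whose relatives in flies and mammals work in that clock or pass its time on to other genes. HES/HEY proteins, among them helt, are basic helix-loop-helix factors that mostly repress their targets. Casein kinase 1δ/ε phosphorylates the clock protein PERIOD in flies and mammals.

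The rule used the 93 libraries with at least 100000 counts, 23 of red, 24 of green, 24 of blue light and 22 of DD, and the 4332 genes that averaged 10 counts or more. The level of a gene was log2(CPM + 5), where CPM is a gene's count scaled to a common library total, averaged within each light condition and time point and then over the 6 time points. The score was the smallest of the differences red minus DD, green minus DD and blue minus DD, and the 100 genes of highest score were kept among the 4242 whose level in blue light exceeded the higher of red and green by less than 0.3. The cryptochrome NVE1138 was left out whatever its score. Because the rule used them, the light-minus-DD differences below describe the selection. The edgeR calls given for the same contrasts are part of that description and are no independent test. Scores ran from 1.44 for NVE24510 to 0.37, a 1.29-fold difference in CPM + 5, and 90 of the 100 scores lay under 0.6. Just inside the limit were NVE12207, annotated as a GYF domain protein, NVE19483 and NVE16507, with scores of 0.3686, 0.3684 and 0.3682. Just outside it were NVE23664 at 0.3678, NVE12121, a protein with several PDZ domains, at 0.3661, and NVE2668 at 0.3638. The condition on blue light removed 5 genes that scored at least as high as the last member, led by NVE2673 with a score of 0.55 and 1.90 for blue minus DD. *helt* (NVE8679) was near that second limit, with blue light 0.29 above green. Names come from the study's table of genes that differed in some comparison of these libraries, which held 72 of the 100 genes, 17 of them as uncharacterized, so 55 had an informative name and 28 had no entry.

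Over the 100 genes, the median difference was 0.59 for red minus DD, 0.54 for green minus DD and 0.49 for blue minus DD, against 0.06, 0.06 and -0.06 over the 4332 genes. The mean log2 level over the 100 genes was 6.23 ± 0.16 (SD, n = 23 libraries) in red, 6.20 ± 0.21 (n = 24) in green, 6.17 ± 0.21 (n = 24) in blue light and 5.59 ± 0.24 (n = 22) in DD. Libraries of DD ran from 5.14 to 5.94, with a median of 5.63. Those of red light ran from 5.98 to 6.54, with a median of 6.26, and all 23 were above every DD library. Green libraries ran from 5.65 to 6.49 (median 6.22) and blue ones from 5.66 to 6.57 (median 6.19), of which 22 of 24 and 20 of 24 were above every DD library.

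**Figure D1:**
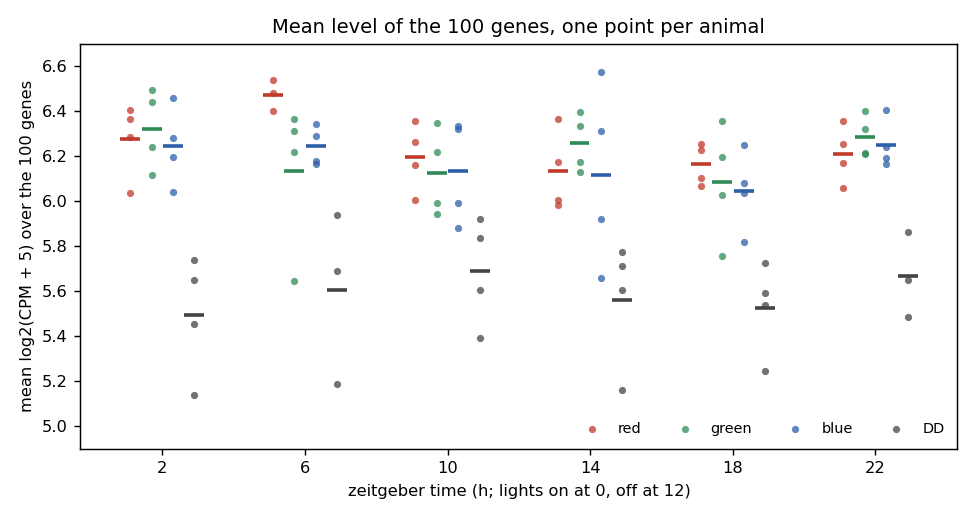
Mean log2(CPM + 5) over the 100 genes in each of the 93 libraries, against Zeitgeber time in hours, with each point 1 animal and each bar the mean of a light condition and time point. The DD animals, which helped to choose the genes, lie between 5.14 and 5.94, and the green animal at ZT6 with 5.65 and the blue animal at ZT14 with 5.66 are the lowest of the light cycles.

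The difference was seen at each time of day, in the photoperiod and in the scotoperiod. At ZT2 the median member was 0.79 above DD in red, 0.79 in green and 0.76 in blue light, with 93, 94 and 91 of the 100 genes above DD. At ZT10 the medians were smaller, 0.42 in red, 0.33 in green and 0.40 in blue light, with 85, 88 and 83 genes above. In the middle of the scotoperiod, at ZT18, they were 0.63, 0.56 and 0.48, with 86, 87 and 89 genes above. The medians of all genes of the rule were 0.02 in red, 0.13 in green and 0.04 in blue light at ZT2. At ZT10 those of all genes were -0.11, -0.0049 and -0.3, and at ZT18 0.15, 0.11 and 0.06. All genes thus also had lower medians at ZT10 than at ZT2 in each color. How much of the smaller medians of the 100 genes at ZT10 came with this shift was not tested. Every library of a light color was above every DD library of its time point in 15 of the 18 pairings of color and time point, the exceptions being green at ZT6 and blue at ZT10 and ZT14. Of the 100 genes, 24 were above DD in all 18 pairings, 83 in at least 15, and the least regular in 10. At each time point the 3 colors were set against the same DD libraries, so the 18 pairings are not separate evidence.

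Whether such genes stay raised in animals that took no part in choosing them can be read by applying the rule to 3 of the 4 replicate letters and measuring the 100 genes it then picks in the libraries of the letter left out, at the 4 to 6 time points where that letter had both a light and a DD library. This calculation was added after the data had been seen. The sets picked shared 59 to 66 genes with the 100 described here. The left-out animals belonged to the same groups, so the calculation cannot separate color from other differences between the cultures. The genes counted below are not replicates. In red light the median left-out difference was 0.41 to 0.46 over the 4 letters, with 77 to 86 of 100 genes above DD, where the choosing letters gave medians of 0.59 to 0.68. For green light the left-out medians were 0.17 to 0.45, with 68 to 88 genes above. For blue light they were 0.03 to 0.44, with 53 to 88 genes above. Over all genes of the rule, the left-out medians were 0.01 to 0.12 in red, 0.0029 to 0.14 in green and -0.21 to 0.11 in blue light, and 51.1% to 62.2%, 50.3% to 62.99% and 31.5% to 63.4% of genes were above DD. The lowest value, 0.03 with 53 genes above DD, was blue light in replicate B, where the median of all genes was -0.14, and replicate D gave 0.19 with 63 genes above, where all genes gave -0.21. The left-out medians were thus lower than those of the choosing libraries in all 12 pairings of letter and color, and above the median of all genes in all 12, where the 3 colors of a letter share their DD libraries and their 100 genes, so the 12 pairings are not separate evidence. Blue ZT10 replicate D, blue ZT14 replicate B and DD ZT2 replicate A stood apart by low mean log2 levels over all genes (5.37, 5.57 and 5.80) and were picked after the data had been seen, while red ZT2 replicate B, at 5.78, was kept. Without these 3 libraries the medians of the 100 genes were 0.58, 0.52 and 0.52 for red, green and blue minus DD, and 81 of the 100 were chosen again, without NVE24510 and *helt*.

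The fourth, the fifth and the sixth highest scores belonged to NVE743, NVE2081 and NVE22417. NVE743 is annotated as the helicase domino, in flies a chromatin remodeling ATPase that exchanges histone variants. Its CPM ran from 7.23 to 71.4 (median 46.4) in DD, from 55.6 to 148 (median 68.03) in red, from 39.9 to 113.8 (median 65.1) in green and from 26.9 to 140.7 (median 74.8) in blue light. The groups overlapped, and the DD median lay below the lowest red library. NVE22417, a kinesin family motor that moves along microtubules, had a median of 21.6 CPM in DD (0 to 42.8), 38.3 in red (17.0 to 67.1), 43.5 in green (17.9 to 67.8) and 37.7 in blue light (8.95 to 65.2). The uncharacterized NVE2081 had medians of 17.3 CPM in DD (6.56 to 34.3), 29.8 in red, 31.7 in green and 33.7 in blue light. For these 3 genes most animals of each color lay above the DD median.

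**Figure D2:**
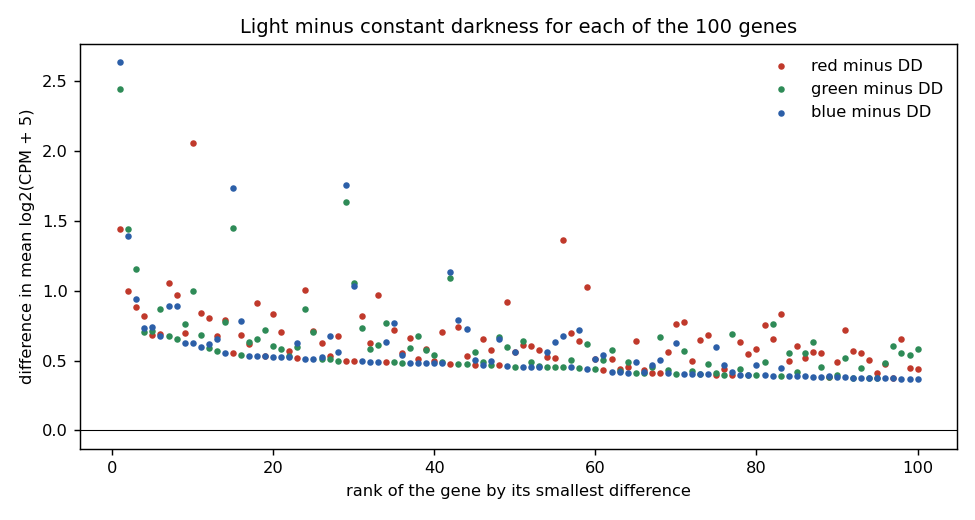
Difference in mean log2(CPM + 5) between each light color and DD for the 100 genes, ordered by their smallest difference, which chose them. Differences run from 0.37 to 2.63 with medians of 0.59 in red, 0.54 in green and 0.49 in blue light, and NVE24510, PAR-bZIPa and helt are far higher in green and blue than in red light.

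Several of the highest scores belonged to genes that were near 0 in part of the animals of every light condition. A library was counted as near 0 for a gene where its CPM was under 10% of the gene's own 90th percentile over the 93 libraries, a measure chosen after the values had been seen. By it, 13 of the 100 genes were near 0 in at least 10% of libraries, against 4.78% of the 4332 genes, and 5 of the 10 highest scores were among them, with *PAR-bZIPa* and *helt*, described below, also among the 13. For NVE24510, without an annotation, CPM ran from 1.98 to 4008 in DD, 3.19 to 5841 in red, 3.54 to 3414 in green and 5.02 to 5853 in blue light, and 12 of 22 DD, 9 of 23 red, 6 of 24 green and 5 of 24 blue libraries were near 0. Its ranges thus overlapped widely between all conditions, while the DD median of 73.3 CPM was below those of red (749), green (1060) and blue light (1263). NVE4465 was at 228 CPM in the median DD animal (0 to 633), 319 in red (0 to 693), 357 in green (0 to 703) and 381 in blue light (0 to 825), and 8 DD, 5 red, 4 green and 5 blue libraries were near 0. NVE4464, the consecutive identifier, was near 0 in 21 libraries, and in all 21 NVE4465 was too, which was low in 1 more. NVE4987, a sphingosine-1-phosphate phosphatase, an enzyme that ends signaling by that lipid, was near 0 in 49 libraries, 17 of 22 in DD, 6 of 23 in red, 12 of 24 in green and 14 of 24 in blue light. The unannotated NVE758 was near 0 in 26 libraries, all of them among those 49. A count of 3 corresponds to 8.70 CPM at the median library total and to 28.8 CPM at the lowest. At the lowest total the near-0 limits of NVE4464 (10.4 CPM) and NVE4987 (20.1 CPM) thus lay under 3 counts. Those of NVE24510 (288 CPM) and NVE4465 (63.2 CPM) lay above 3 counts. Whether single values near a limit differed beyond counting error was not tested.

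**Figure D3:**
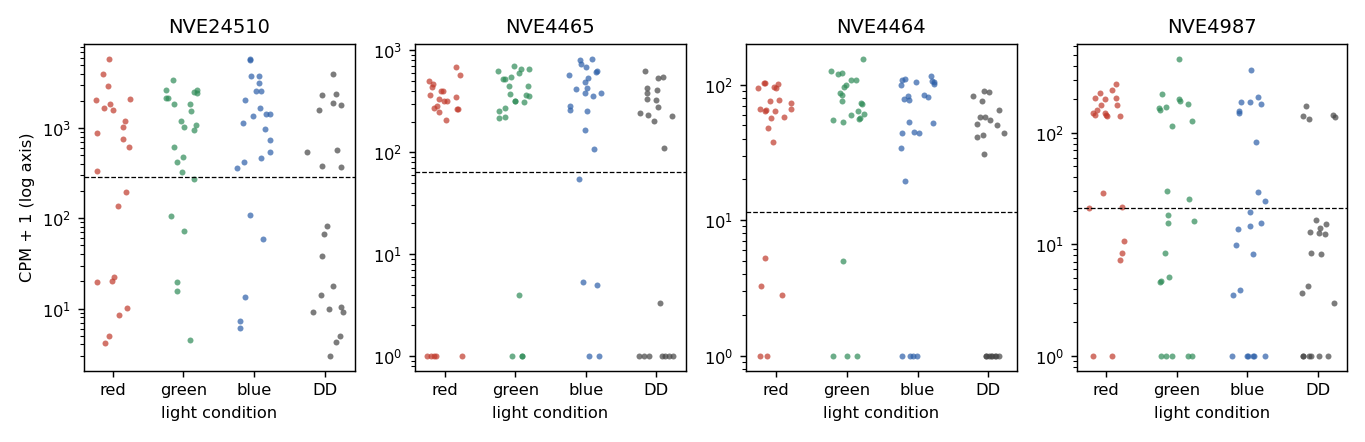
CPM + 1 on a log axis for NVE24510, NVE4465, NVE4464 and NVE4987 in the 93 libraries, with each point 1 animal and the dashed line the value under which a library was counted as near 0. In each light condition some animals lie below the line for every gene, in DD 12, 8, 8 and 17 of the 22.

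For some of these genes the score moved widely with 1 replicate letter. The score of NVE24510 ran from 0.38, without replicate B, to 2.11 when each letter was left out in turn, and that of NVE4987 from 0.23, without replicate A, to 1.31, without replicate B. NVE2343, a pyridoxal phosphate-dependent enzyme, a class that mostly works on amino acids, had a score of 0.66, and of -0.11 without replicate D. NVE4465 ran from 0.65 to 1.28, NVE4464 from 0.75 to 0.92, NVE743 from 0.58 to 0.74 and NVE7076, without an annotation, 0.63 to 0.76.

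The genes with informative names had many roles. Among those acting on RNA and chromatin, beside NVE743, were NVE3908, a homolog of the splicing kinase PRP4 (red, green and blue minus DD 0.70, 0.50 and 0.45), NVE13735, annotated as an insulin-like growth factor 2 mRNA-binding protein (0.44, 0.42 and 0.42), NVE20729, a homolog of the splicing factor PRPF40 (0.64, 0.41 and 0.49), NVE2977, a serine and arginine-rich matrix protein (0.55, 0.40 and 0.40), and NVE444, a YTH domain protein of a family that in mammals reads methylated adenosine in RNA (0.91, 0.65 and 0.53). Genes of the cytoskeleton included the kinesins NVE22417 and NVE1335 (0.44, 0.40 and 0.47), NVE3472, a crosslinker of microtubules and actin (0.63, 0.44 and 0.40), and NVE18051, annotated as myosin IIIA (0.55, 0.45 and 0.38). Among matrix and adhesion genes were NVE22014, a cadherin, which joins cells in the presence of calcium (0.84, 0.68 and 0.60), NVE24823, a collagen (0.68, 0.57 and 0.65), and NVE24809, agrin, a proteoglycan of basement membranes (0.82, 0.73 and 0.49). On the scaling of the rule, red light had the largest difference in all of these except both kinesins. NVE444 and NVE24809, like NVE23675 and NVE13015, NVE21893, NVE7729, NVE24911, NVE14232 and NVE16780 below, lie outside the rule for named genes and were picked after their values were seen. Also outside that rule, which took 2 members per functional list, are NVE13735, NVE20729, NVE2977, NVE3472 and NVE18051, and below NVE12991 and NVE19215.

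The cadherin NVE22014 had a median of 22.1 CPM in DD (3.78 to 39.2), 41.997 in red (14.8 to 60.3), 34.9 in green (16.8 to 71.3) and 35.7 in blue light (9.32 to 76.9). The collagen NVE24823 had 24.7 CPM in the median DD animal (0 to 36.1) against 38.3, 36.1 and 34.1 in red, green and blue light. NVE23675, a cellulase, had 39.8 CPM in DD (3.69 to 115.1) against 76.7, 67.6 and 63.7. In all 3 genes the ranges of light and DD animals overlapped and every colored median was above that of DD. Signaling and transport genes included NVE4213, a receptor-type tyrosine phosphatase (0.58, 0.58 and 0.48), the protein kinase NVE12991 (0.72, 0.52 and 0.38), NVE4324, an organic anion transporter (0.79, 0.77 and 0.55), NVE877, a mitochondrial glutamate carrier (0.53, 0.47 and 0.73), and NVE9778, a ubiquitin-conjugating enzyme (0.65, 0.76 and 0.39). Zinc finger proteins included NVE23025 (0.62, 0.63 and 0.54) and NVE19215 (0.61, 0.49 and 0.46).

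Other named members were NVE13015, a spectrin beta chain of the membrane skeleton (0.70, 0.58 and 0.53), NVE21893, a tight junction protein (0.60, 0.42 and 0.39), NVE7729, a homolog of capicua, in flies and mammals a repressor under the control of receptor tyrosine kinase signaling (0.71, 0.71 and 0.51), and NVE24911, a lysine demethylase (0.64, 0.40 and 0.41). NVE14232, a dopamine beta-hydroxylase, the enzyme that makes noradrenaline from dopamine in vertebrates (0.57, 0.53 and 0.52), and NVE16780, a homolog of unc-13, which readies synaptic vesicles for release in worms and mammals (0.50, 0.37 and 0.38), were not in the list of 8 neuronal genes, of which 0 rose and 1 fell in red and in green, and 1 rose and 2 fell in blue light.

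NVE6915, annotated as casein kinase 1δ/ε and named here after its values were seen, had a score of 0.47. It had 40.04 CPM in the median DD animal (14.6 to 65.9), 62.6 in red (14.6 to 119.2), 58.2 in green (17.9 to 96.0) and 59.02 in blue light (26.9 to 101.97). The ranges overlapped, and no difference between day and night was called in any condition (edgeR log2 fold change 0.21 ± 0.21 SE in red, -0.17 ± 0.21 in green, 0.21 ± 0.22 in blue light and 0.0009 ± 0.18 in DD).

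In edgeR's quasi-likelihood test of the contrasts that also chose the genes, at 10% FDR over the 9597 genes that averaged 3 counts or more, 59 of the 100 passed for red minus DD, 48 for green minus DD and 62 for blue minus DD, all of them upward, and 36 passed in all 3. Over all genes tested, 12.7% passed for red minus DD (6.45% upward), 5.31% for green minus DD (2.97% upward) and 7.41% for blue minus DD (3.09% upward), and 68 genes were called upward in all 3. The split between upward and downward calls depended on the scaling. It was 619 up and 599 down in red, 285 and 225 in green, and 297 and 414 in blue light, against 972 and 324 in red, 429 up among 567 calls in green, and 282 and 346 in blue light with column sums only, the scaling of the rule. In blue light DESeq2 gave 398 up and 383 down and RLE normalization 389 and 343. In a fit of only the genes that, like the 100, averaged 10 counts or more, 24.3%, 13.3% and 15.5% of genes passed in either direction. Leaving out 1 replicate letter left 36 to 50 of the 100 called in red, 19 to 53 in green and 23 to 48 in blue light, with 19 in green without replicate A and again without replicate C, and 23 in blue light without replicate C. Since the rule used these contrasts, nothing is read from the counts.

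The functional lists were made by key words in the names, except that of 12 clock and light candidates, which came from the study's genes of interest. Of these 12, 2 were among the 100, and NVE1138 had been left out by the rule. The other lists held 59 transcription factors with 4 of the 100, 51 RNA processing genes with 5, 100 cytoskeleton genes with 4, 39 matrix and adhesion genes with 2, 28 ubiquitin genes with 1, and larger lists of membrane signaling and of transport and metabolism genes with 3 and 5. None of the 100 was in the lists of 34 respiration, 61 translation, 24 chaperone, 15 redox, 24 chromatin and DNA repair or 40 protease genes. Of the 1650 genes with an entry in the study's table, 72 were among the 100, so few would fall in a list of such size. The lists also took genes that averaged 3 counts or more, where the 100 averaged 10 or more. Nothing is read from how many of the 100 a list held. A key word list held only names with its key words, which could also match inside longer words. NVE743, the helicase domino, was thus listed under RNA processing, and the lysine demethylase NVE24911 was not in the chromatin list. The names come from genes that the study listed on these same libraries, so the lists are not independent evidence of a direction. Calls over all named genes together were not counted, so whether a lean was particular to a list was not tested. Of the RNA processing genes, 23 rose and 4 fell in red light against DD, 10 rose and 2 fell in green, and 11 rose and 2 fell in blue light, with median log2 fold changes of 0.33, 0.24 and 0.16. The cytoskeleton list had 42 up and 11 down in red, 12 and 5 in green, and 13 and 7 in blue light (medians 0.34, 0.25 and 0.12). Through matches inside longer words it also held genes named for other roles. Among them were the clock-interacting NVE4116 and the SHC-transforming protein NVE10427. Of the membrane signaling genes, 63 rose and 6 fell in red, 17 and 5 in green, and 13 and 9 in blue light (medians 0.40, 0.26 and 0.21). Other lists leaned upward in red light, among them transcription factors (26 up and 3 down), matrix and adhesion (16 and 3) and ubiquitin (14 and 3). So did the chromatin and DNA repair list, whose key words took in none of the 100. It had 12 up and 1 down in red, 4 and 1 in green, and 3 and 0 in blue light (medians 0.37, 0.25 and 0.21). In red light transport and metabolism had 28 up and 27 down, proteases 6 and 5, translation 11 and 20, chaperones 4 and 7 and redox 1 and 6. The respiration genes, subunits of the mitochondrial electron transport chain and ATP synthase, had 0 up and 25 down in red, 0 and 9 in green, and 6 and 8 in blue light (medians -0.46, -0.23 and -0.17), where the median of all genes tested was 0.0027, 0.02 and 0.0031.

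The cell type lists were also made by key words in the names and are not checked markers of a cell type. Of these lists, muscle had the most genes that rose in red and green light. It took in every gene named a myosin, the nonmuscle myosin NVE4823 among them. The muscle list had 26 genes, 2 of them among the 100 (NVE11862, a protein with LIM and calponin homology domains, and NVE18051, myosin IIIA). Of the 26, 18 rose and 1 fell in red against DD, 8 rose and 0 fell in green, and 4 rose and 1 fell in blue light. Their summed level ran from 3972 to 9559 CPM in DD (median 6499), 6546 to 11302 in red (8662), 5538 to 10567 in green (8110) and 4074 to 8902 in blue light (7057). Of the 22 genes of the gland and digestive list, 7 rose and 1 fell in red, 5 and 1 in green, and 5 and 2 in blue light. Its 1 gene among the 100, NVE21284, is annotated as a phospholipase C and was listed through the key word lipase. The summed level of the 8 neuronal genes had medians of 387 CPM in red, 360 in green, 372 in blue light and 333 in DD. Of 6 germ line and yolk genes 2 rose and 1 fell in red, 0 in either direction in green, and 1 rose and 1 fell in blue light. Of 2 genes of cnidocytes, the stinging cells, 1 fell in each color, and their summed level, with medians of 13.4 CPM in red, 15.5 in green, 22.9 in blue light and 19.9 in DD, reached 0 in some animals. Each listed gene had counts in every condition. The part of cell type composition in the levels of the 100 genes was not tested.

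The colors were not alike for all of the 100 genes. Red light had the largest difference from DD for 55 genes, green for 25 and blue for 20, and blue light had the smallest for 50, green for 30 and red for 20. These counts used column sums, by which the median of all 4332 genes was 0.06 in red, 0.06 in green and -0.06 in blue light. On TMM-scaled totals the medians of the 100 genes were 0.52, 0.50 and 0.50 for red, green and blue minus DD. In the main edgeR fit they were 0.53, 0.51 and 0.54, so the order of the colors depended on the scaling. A few genes were far higher in green and blue than in red light. Beside NVE24510, these were *PAR-bZIPa* (NVE14677; 0.50 in red, 1.63 in green and 1.76 in blue minus DD), *helt* (0.55, 1.45 and 1.73), NVE4855, a membrane protein (0.48, 1.09 and 1.13), and NVE4856, a lipocalin, of a family that binds small hydrophobic molecules (0.50, 1.06 and 1.03). They were picked out after their values were seen. For red minus DD none of these genes was called in the main edgeR fit, and DESeq2 called NVE24510 alone of them. For NVE4855 the median animal had 227 CPM in DD (65.04 to 664), 324 in red (208 to 565), 519 in green (325 to 863) and 588 in blue light (57.7 to 986). NVE4855 and NVE4856 have consecutive identifiers, as do 3 other pairs of the 100 (NVE4464 with NVE4465, NVE9606 with NVE9607, NVE19482 with NVE19483). Gene positions were not used here.

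Whether the raised genes also followed the light cycle was tested by contrasts that the rule, an average over the day, did not use. The mean of ZT2, ZT6 and ZT10 was compared with that of ZT14, ZT18 and ZT22 in each condition. Of the 100 genes, edgeR called 1 in red light, *PAR-bZIPa*, and 2 in green and 2 in blue light, *PAR-bZIPa* and *helt* in both, all higher by day. No member was called in DD, where 7 of the 100 and 795 of all genes had an unadjusted p under 0.05, and DESeq2 also called 0 of the 100. Over all genes tested the called share was 0.333% in red, 0.406% in green, 0.104% in blue light and 0.167% in DD. The median log2 fold change, day over night, of the 100 genes was 0.13 in red light (70 of 100 above 0), -0.10 in green (41 above 0), 0.03 in blue light (55) and 0.02 in DD (54), against 0.01, -0.01, 0.01 and 0.01 over all genes. Intervals were wide for single genes. The median standard error was 0.24 to 0.27, and for 71 of the 99 genes not called in red, 78 of 98 in green, 71 of 98 in blue light and 75 of 100 in DD, the 95% interval of the log2 fold change lay within 1 of 0.

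**Figure D4:**
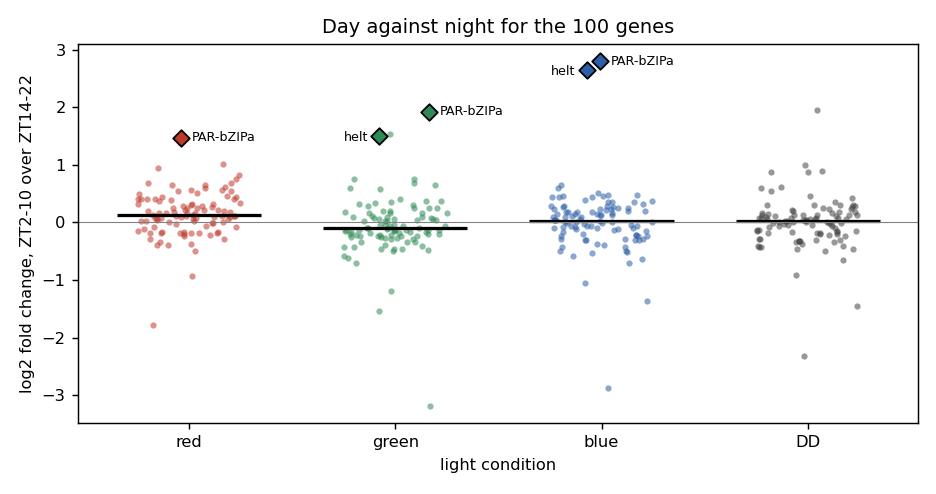
Log2 fold change of ZT2, ZT6 and ZT10 over ZT14, ZT18 and ZT22 from edgeR for each of the 100 genes in each light condition, with diamonds for genes called at 10% FDR and a black bar for the median. The medians lie between -0.10 and 0.13, and the called genes are PAR-bZIPa in red, green and blue light and helt in green and blue light.

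*PAR-bZIPa* rose by day in blue light, with a log2 fold change of 2.80 ± 0.32 (SE; adjusted p = 2.01e-09), in green light by 1.92 ± 0.30 (adjusted p = 0.00013) and in red light by 1.47 ± 0.38 (adjusted p = 0.070). It had 143 CPM in the median blue animal by day (9.61 to 234, n = 12) and 14.8 by night (0 to 55.1, n = 12), 105.05 (32.8 to 140) and 22.7 (8.50 to 39.1) in green, and 25.5 (11.4 to 66.6, n = 11) and 8.62 (2.47 to 19.4, n = 12) in red light. In DD the medians were 13.2 (0 to 43.4, n = 11) and 7.86 (0 to 23.4, n = 11), with a log2 fold change of 0.99 ± 0.44 that did not pass (adjusted p = 0.54). Day and night ranges of red, green and blue light overlapped, in blue light through 1 day library, ZT10 replicate D, at 9.61 CPM, while the other 11 held at least 98.8. The call in red light was lost without any 1 of the 4 replicate letters, at log2 fold changes of 1.32 to 1.66, and the calls in green and blue light were not lost.

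*helt* rose by day in blue light by 2.65 ± 0.31 (adjusted p = 3.93e-09) and in green light by 1.504 ± 0.30 (adjusted p = 0.0035). Blue animals had a median of 143 CPM by day (54.97 to 203) and 17.7 by night (3.95 to 67.98), and green animals 72.2 (31.0 to 147) and 19.5 (14.5 to 51.7). Red animals had 37.3 (3.79 to 89.4) and 17.1 (3.34 to 34.5), a log2 fold change of 1.02 ± 0.34 that did not pass (adjusted p = 0.29), and DD animals 13.2 (0 to 34.3) and 13.1 (0 to 41.0). The call in green light was lost without replicate D, at 1.32.

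**Figure D5:**
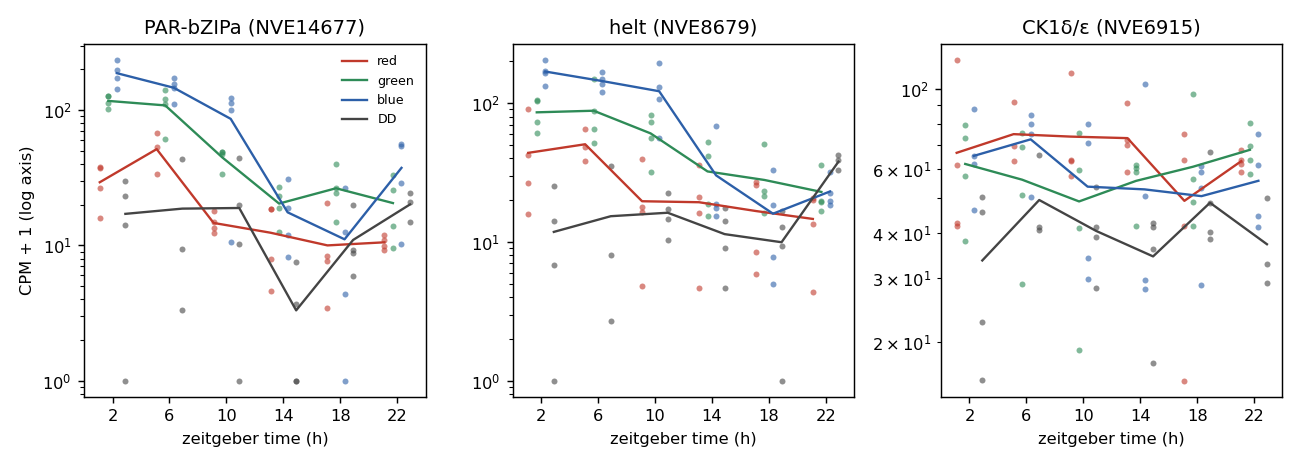
CPM + 1 on a log axis of PAR-bZIPa, helt and casein kinase 1δ/ε against Zeitgeber time in hours, with each point 1 animal and lines through the means of each light condition. PAR-bZIPa and helt are highest at ZT2 in blue light, at means of 187 and 168 CPM, while casein kinase 1δ/ε has day medians of 62.3 in red, 57.5 in green, 66.9 in blue light and 40.4 CPM in DD.

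The day-minus-night difference was then compared between light and DD. For *helt* it was larger in blue light than in DD by 2.81 ± 0.53 on the log2 scale (adjusted p = 0.0057), 1 of the 3 genes called (0.0313% of those tested), and the call was lost without replicate A and without replicate D, at 2.45 and 2.63. No gene passed for the mean of the 3 colors, for red or for green (0% each), where 533, 477 and 508 genes, and 5, 9 and 6 of the 100, had an unadjusted p under 0.05, and DESeq2 called 1 gene for the mean, *helt*, 2 for red and 2 for green. For *PAR-bZIPa* the difference between blue light and DD was 1.81 ± 0.65 (adjusted p = 0.82). Between colors, none of the 100 was called for blue minus red (0.0208% of all genes), blue minus green (0%) or green minus red (0%), where 5, 8 and 6 of the 100 and 401, 472 and 345 of all genes had an unadjusted p under 0.05 and DESeq2 called 0 of the 100 and 10, 4 and 2 of all genes. *helt* had the largest blue-minus-red estimate of the 100, 1.63 ± 0.47 (adjusted p = 0.77). An overall test across the 6 time points called *PAR-bZIPa* and *helt* in blue light (0.25% of all genes) and in green light (0.177%), there *helt* at an adjusted p of 0.071 and no longer without any 1 of the replicate letters. It called none of the 100 in red light (0.0834%) or DD (0.0521%), where 5 and 16 of the 100 and 514 and 699 of all genes had an unadjusted p under 0.05 and DESeq2 called 2 and 0 of the 100.

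Among animals of a group, pairs of the 100 genes were weakly correlated at the median. The median correlation of 2 members' deviations from their group means was 0.11 over the 4950 pairs, against 0.08 over all pairs of the 4332 genes. The closest pairs were NVE4465 with NVE4464 (r = 0.95), NVE1495 with NVE24337 (0.79), NVE4856 with NVE4855 (0.77), NVE7076 with NVE16507 (0.74) and NVE4987 with NVE758 (0.73). The points of such a correlation are the 93 libraries, and both genes of a pair share the library and its depth.

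Totals of the libraries used ran from 104048 to 706046, with a median of 344755. The mean log2 level of the 100 genes moved with depth among animals of a group (Pearson r = 0.50, Spearman rho = 0.45, n = 93 deviations from group means, permutation p = 1e-05, the smallest that 100000 permutations can give, and 2e-05, BH-adjusted over 4 tests 1.33e-05 and 2e-05), with r = 0.45 without the 2 libraries farthest in depth. Within conditions r was 0.24 in red, 0.64 in green, 0.58 in blue light and 0.56 in DD. The mean over all 4332 genes was 6.29 in red, 6.30 in green, 6.17 in blue light and 6.23 in DD, and it moved with depth as well (r = 0.83, rho = 0.72, permutation p = 1e-05 for both, BH-adjusted 1.33e-05, and 0.79 without those 2 libraries). With every library thinned to 100000 counts, the median differences of the 100 genes were 0.60, 0.60 and 0.55 for red, green and blue minus DD, and 48 of the 100 were again among the top 100. Of the 100 genes, 52 had mean counts from 10 to 20.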

How the data were processed

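RNA of whole adult animals was sequenced by a tag-based method that yields reads from 1 part of each transcript. Per the study's methods, the authors removed PCR duplicates, used the FastX-toolkit for trimming and quality filtering of the single-end reads, aligned these by Bowtie2 (version not given in the sources used here) against the Vienna gene models and deposited raw counts of reads that mapped to a single gene. Each count column matched 1 library. Libraries under 100000 counts, 1 of red light and 2 of DD, were left out.

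From these counts, CPM were computed with pandas 2.3.3 on Python 3.11.15, and edgeR 4.0.16 (quasi-likelihood test, TMM, R 4.3.3) was fitted with 24 groups of light and time point over the 9597 genes that averaged 3 counts or more, at 10% FDR (Benjamini-Hochberg). DESeq2 1.42.0 was an alternative. The fit was tested on simulated data. Counting intervals and floors cover counting error only. Alternatives were other scalings, filters, pseudocounts and sets of libraries.

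The 100 genes and all lists were chosen with earlier results of these data known. The rule for named genes took the 10 highest scores, up to 3 genes called per day and night contrast, 2 members per functional list, and 3 genes on either side of the limit. Log2 levels used a pseudocount of 5 CPM.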

Additional observations from a re-analysis of the deposited data

Results flagged for a closer look

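A sample far from the others was sought in the mean log2 level of the chosen genes and in *PAR-bZIPa* (NVE14677) and *helt* (NVE8679). Over these quantities, 63 groups of 4 animals were examined, and 3 such samples were found. Chance gives about 1 in 20 groups. *PAR-bZIPa* was at 32.8 CPM in green ZT10 replicate A, below 46.6 to 48.2 in the other animals of that group. *helt* was at 35.0 CPM in green ZT22 replicate A, above 15.6 to 18.6 in the others. *helt* was also at 67.98 CPM in blue ZT14 replicate C, above 14.3 to 17.9 in the others. The day-minus-night difference of *helt* (NVE8679) was larger in blue light than in DD by 2.81 on the log2 scale (edgeR, adjusted p = 0.0057).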

How the results depend on the processing

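The light-minus-DD medians of the 100 genes, whose sign the choice of the genes fixes, were, without each replicate letter in turn, 0.59 to 0.64 in red, 0.47 to 0.64 in green and 0.43 to 0.55 in blue light. Which genes were chosen changed more. Of the 100 genes, 57 were chosen again with a mean count of at least 3, 48 with libraries thinned to 100000 counts, 61 with all 96 libraries, and 59 to 66 without each replicate letter. The score of NVE2343 was -0.11 to 0.95 without each replicate letter, below 0 without D. The cause was not tested.

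Of the day-against-night calls in red light, DESeq2 gave 3 members and 91 genes, no filter on counts 0 and 12, and column sums 19 genes. The 3 members were *PAR-bZIPa* and *helt*, higher by day, and NVE2343, lower by day. NVE2343 was also called lower by day with the replicate block and without replicate A. In the main fit it had a log2 fold change of -1.77 and was not called. In green light DESeq2 gave 69 genes, no filter 18 and column sums 25. In blue light DESeq2 gave 27 genes and a mean count of at least 10 gave 5. In DD DESeq2 gave 30 genes, all 96 libraries 31, no filter 0 and column sums 5. Without each replicate letter the calls were 0 to 1 members and 2 to 42 genes in red, 1 to 2 and 3 to 47 in green, 2 and 6 to 12 in blue light, and 0 and 0 to 3 in DD.

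For day against night in light minus DD, DESeq2 gave 1 member and 1 gene over the mean of the colors, 2 genes in red and 2 in green. Without each replicate letter the genes called were 0 to 1 for the mean, 0 to 1 for red and, for blue light, 0 to 3 with 0 to 1 members. Between colors, DESeq2 gave 10 genes for blue minus red, 4 for blue minus green and 2 for green minus red, and a mean count of at least 10 gave 1 for blue minus red, where leaving out replicate letters gave 0 to 3.

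For light minus DD, no filter gave 3.25% of genes tested in red, 28 members and 1.01% in green, and 39 members and 1.97% in blue light, and a mean count of at least 10 gave 24.3%, 13.3% and 15.5% of genes tested. Without each replicate letter there were 36 to 50 members and 5.2% to 8.73% of genes in red, 19 to 53 and 1.23% to 8.01% in green, and 23 to 48 and 2.89% to 5.01% in blue light.

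For any difference between time points in red light, members called were 2 with DESeq2, 1 with no filter, 2 with a mean count of at least 10 and 2 with column sums, and genes were 50 with DESeq2, 4 with libraries of at least 10000 counts, 15 with a mean count of at least 10, 5 with RLE normalization and 13 without the 3 libraries that stand apart. In green light no filter gave 1 member and 7 genes and DESeq2 35 genes. In blue light DESeq2 gave 65 genes and the fit without those 3 libraries 15. In DD, all 96 libraries gave 1 member and 39 genes, no filter 1 and 8, DESeq2 41 genes, libraries of at least 10000 counts 29, a mean count of at least 10 gave 15 and the fit without those 3 libraries 16. Without each replicate letter the calls were 0 members and 1 to 5 genes in red, 1 and 2 to 29 in green, 2 and 12 to 39 in blue light, and 0 and 1 to 9 in DD.

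With the replicate block, day against night called 2 members in red light, the light-minus-DD difference of day and night 1 gene in red, and the test of any time point 2 members and 13 genes in red and 10 genes in DD. The labels do not say whether a letter marks anything shared between groups. Same-letter libraries had a median correlation of deviations of 0.0111, other pairs -0.0041, and 157 of 1036 same-letter pairs exceeded 0.1.

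At these depths a member with a mean count near 10 had few counts in single libraries, and most members' day and night differences had wide intervals.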
